A study of Mus musculus with 12 samples.

Results

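The 40 genes described here build and run the DNA replication machinery of the mouse and supply its nucleotides. They were chosen by name as S-phase genes, out of 55401 genes in the count table, and all 40 passed the filter on low counts with between 318 and 12406 counts in every library. They were measured by bulk RNA sequencing of Sp37A3, a dendritic cell (DC) line made from mouse spleen and grown in medium with GM-CSF and M-CSF. The CtrV line carried the empty lentiviral CRISPR vector, and the EKO line was a pool of single clones made by CRISPR-Cas9 editing of Siglece, the gene of the sialic acid receptor Siglec-E. Each line was sequenced unpulsed and after a 2 h pulse with 0.1 mg/ml ovalbumin (OVA), with 3 libraries in each of the 4 groups, and all 12 cultures are labelled as LPS-stimulated, with 24 h given for all. The LPS dose was 0.1 µg/ml for the pulsed cells and is not stated for the unpulsed ones. No culture labelled as free of LPS was part of the comparison. Each line was made once, so the loss of Siglec-E and any other difference between the lines cannot be told apart.

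Before a cell divides, the origin recognition complex, Cdc6 and Cdt1 load the ring-shaped MCM helicase onto DNA. The kinase Cdc7 with its activator Dbf4 and a set of loading factors then turn the ring into the active CMG helicase, made of Cdc45, MCM and GINS. Polymerases copy the strands on the sliding clamp PCNA, Fen1 and Lig1 join the pieces, ribonucleotide reductase and thymidine enzymes supply the building blocks, and CAF-1 packs the new DNA into nucleosomes. Many of these genes are transcribed as cells enter S phase, driven by E2F factors. Dendritic cells that mature after LPS commonly leave the cell cycle, while growth-factor-dependent DC lines divide in culture.

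The libraries held 27116201 to 39698572 counts. The DC list, with MHC class II and Itgax, summed to between 28383 and 31022 CPM (counts scaled to a common library size) in the 12 libraries, with 15 of its 16 genes past the filter and Clec9a near 0. Cd74 was the largest part of that sum, and in OVA-pulsed cells 8 DC markers were called higher and 2 lower in EKO than in CtrV, whose part in the results was not tested. Irf8 went from 94.0 ± 20.5 to 239.7 ± 53.1 CPM and Ccr7 from 94.7 ± 75.8 to 356 ± 205 CPM, while Itgax went from 1024 ± 57.7 to 847 ± 28.8 CPM (SD, n = 3). None of the 5 T cell, 4 B cell, 2 NK cell, 3 neutrophil and 2 erythroid markers passed the filter, and S100a8, S100a9, Ly6g, Cd3e and Trac had 0 counts in every library. The macrophage and monocyte list was at 1284 to 1458 CPM in CtrV and 1633 to 1762 CPM in EKO libraries, and the fibroblast and endothelium list, carried by Pecam1, at 167 to 203 and 285 to 348 CPM. The part of these lists in the results was not tested either. Siglece itself was at 152, 153 and 163 CPM in OVA-pulsed CtrV and 174, 208 and 202 CPM in OVA-pulsed EKO libraries, so its mRNA was not lower in the libraries labelled EKO. Its log2 fold change with OVA was 0.31 ± 0.08 (adjusted p = 0.0106, edgeR), and with OVA-pulsed CtrV replicate 2 or EKO replicate 2 left out the adjusted p was 0.0729 or 0.0623. Without OVA its level was 32.7% higher in EKO, and that call held in all 15 alternative settings (adjusted p up to 0.0211, edgeR or DESeq2). Directions below are those of the labels.

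Replication genes were lower in the EKO-labelled line, by a modest amount and not uniformly. In OVA-pulsed cells 25 of the 40 genes were lower in EKO than in CtrV, none was higher, and 15 did not pass the test (quasi-likelihood test of edgeR, Benjamini-Hochberg adjusted over 14079 genes, threshold 0.05). Of all tested genes 47% were called in the same comparison, 21.9% lower and 25.1% higher. The median log2 fold change of the 40 genes was -0.24, with a range from -1.04 to 0.01, against a median of 0.00064 over all tested genes. Among them Tk1 alone was past 2-fold, and Tk1, Rrm2, Rfc5 and Dbf4 were past 1.5-fold. For 21 of the 40, every EKO library lay below every CtrV library, as for 25.9% of all tested genes, and for none of them did every EKO library lie above, as for 27% of all tested genes. The calls of Orc1, Cdc6, Cdc7, Pola2, Tyms and Chaf1b were marginal. Each was lost in 4 or 5 of the 6 fits that dropped 1 library (adjusted p up to 0.154), although its log2 fold change stayed below 0 in all of these fits. The call of Uhrf1 was lost in 1. These are levels in bulk RNA, in which fewer cells in S phase and less RNA per cell cannot be told apart. Log2 fold changes are given with the standard error of the edgeR fit, and adjusted p-values without another name are from that test.

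In unpulsed cells 21 of the 40 genes were lower in EKO and 1, Gins3, was higher, where 46.4% of all tested genes were called, 21.9% lower and 24.5% higher. The median was -0.20, with a range from -0.90 to 0.21. No EKO library reached the lowest CtrV library for 22 of the 40, against 22.9% of all tested genes, and none of the 40 was above in every library, against 24.1%. The count rests in part on EKO unpulsed replicate 2, without which 13 genes were lower and 1 was higher, and the call of Pcna was lost in 4 of the 6 fits that dropped 1 library (adjusted p up to 0.211) and those of Cdc6, Cdt1, Gins3 and Rrm1 in 3. The share of all tested genes called without that library is not given here. Both comparisons called 18 genes lower, which is 18 of 25 and 18 of 21. Orc1, Gins1, Cdc7, Ticrr, Rfc1, Chaf1b and Uhrf1 passed the test only with OVA, and Cdt1, Pcna and Rfc3 only without it, but the difference between the pulsed and unpulsed comparison did not pass a test for any of them. The fold changes of the 2 comparisons, which use separate libraries of the same lines, had a Pearson's r of 0.88 across the 40 genes. These genes are not independent of each other, and r over all tested genes was not determined. Deviations of the 40 genes in same-numbered unpulsed and pulsed EKO libraries had r = 0.745, 0.137 and 0.829, so the comparisons are not fully independent either. Within pairs of same-numbered OVA-pulsed libraries, the median difference of the 40 genes was -0.25, -0.24 and -0.27 on the log2 CPM scale for replicates 1, 2 and 3.

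**Figure D1:**
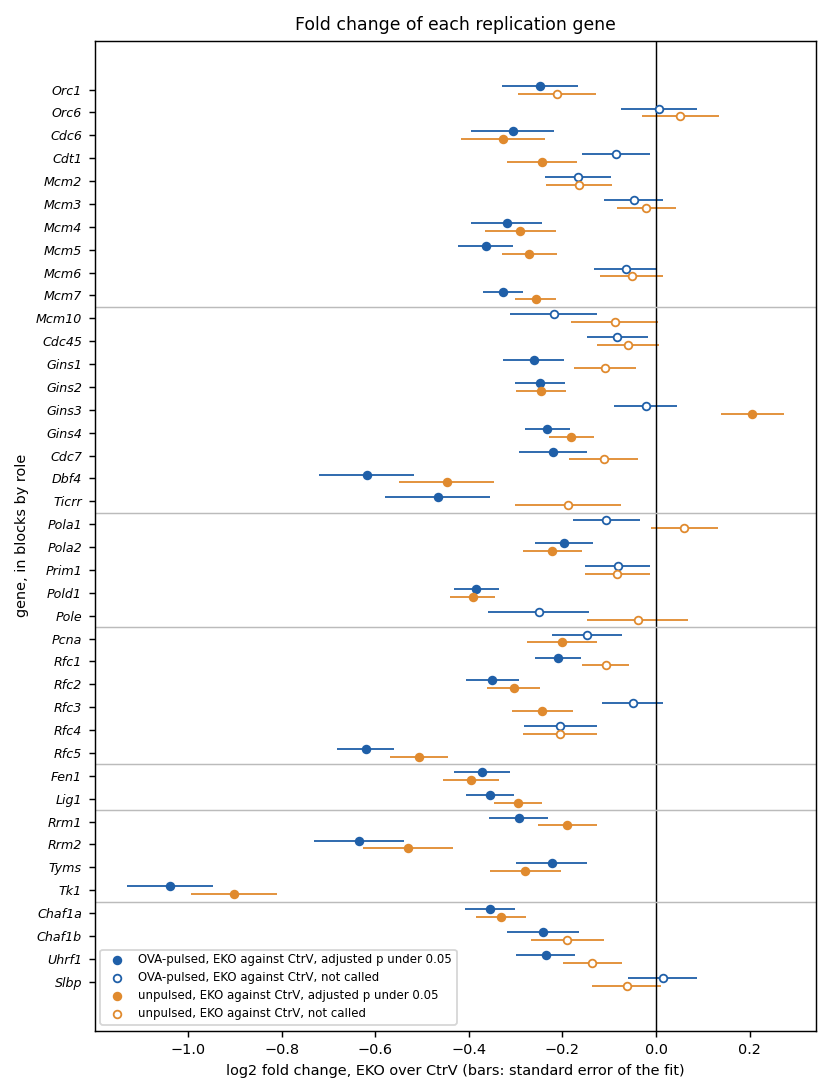
Log2 fold change of the 40 replication genes in EKO over CtrV cells, with OVA (blue) and without (orange), in blocks by role. Bars are the standard error of the edgeR fit, filled points have an adjusted p under 0.05, and the points lie almost entirely left of 0, from -1.04 for Tk1 to 0.21 for unpulsed Gins3.

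The share of all counts that fell on the 40 genes was 0.335% to 0.387% in the 6 CtrV libraries and 0.268% to 0.318% in the 6 EKO libraries, so the lines did not overlap. OVA-pulsed EKO replicate 1 was the lowest. Both EKO libraries numbered 1 deviated together from the other EKO libraries (r = 0.711 between their deviations over all tested genes). Without both of them 25 genes were lower with OVA and 26 without OVA, and none was higher. The shares of all tested genes called in that fit are not given here.

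**Figure D2:**
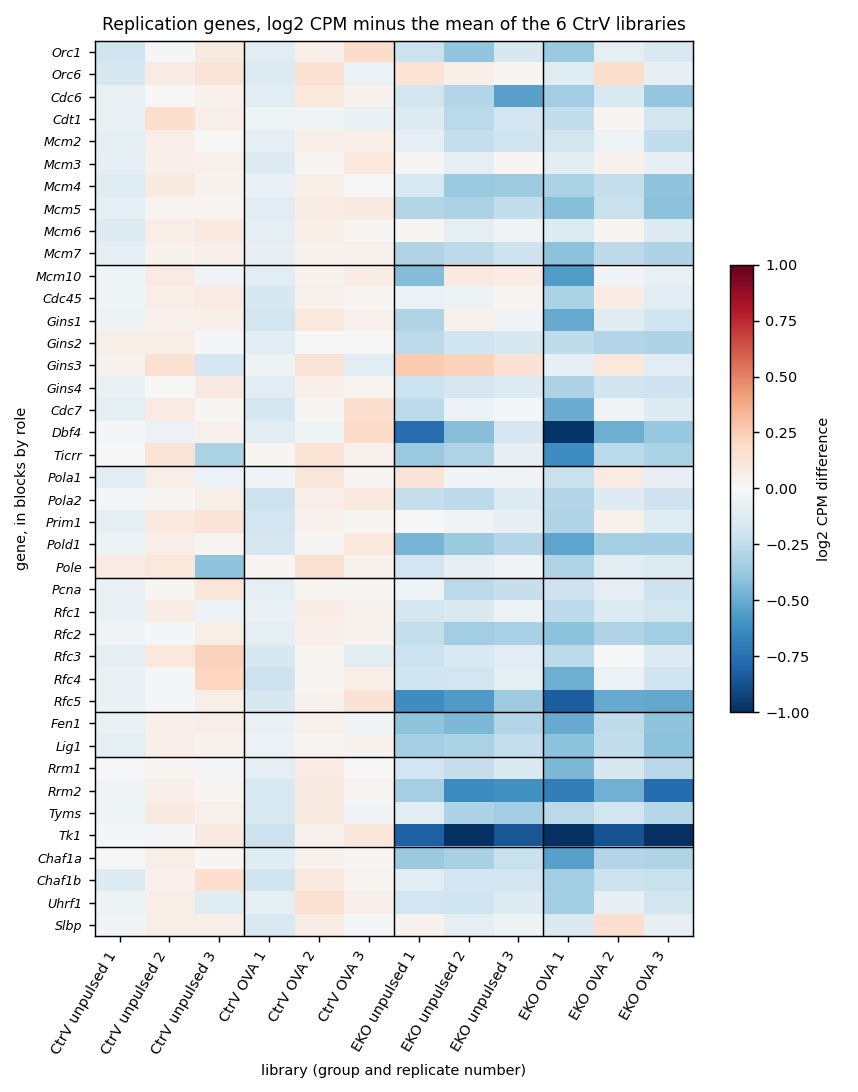
Each row is 1 of the 40 genes and each column 1 of the 12 libraries, and colour gives the log2 CPM minus the mean of the 6 CtrV libraries, with values beyond -1 drawn at the end of the scale. The blue right-hand side shows the EKO libraries, deepest for Tk1, Rrm2, Rfc5 and Dbf4, while rows such as Orc6, Mcm3, Mcm6, Gins3 and Slbp stay pale or turn red in some EKO libraries.

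Promoter sequence is shown for the genes that moved most and for genes that hold E2F letters but moved unequally. RefSeq start sites on GRCm38 matched 34 of the 40 genes (40 start sites), and each window ran from 250 bases before to 50 bases after the start. The E2F letters TTTCCCGC or TTTGGCGC, on either strand, were in 25% of the genes' start sites against 2.02% of 21263 start sites of all protein-coding genes. CCAAT stood in 57.5% against 38.2%, the GC box GGGCGG in 77.5% against 46.2%, and the mitotic CHR letters TTTGAA in 17.5% against 16%. A GC box can share letters with an E2F match beside it and was then counted for both, and no test was made. Among the start sites of genes that were lower with OVA, 15.4% held the E2F letters (4 of 26), and among those of genes that did not pass the test, 42.9% (6 of 14). The split was not particular to E2F letters. It was 42.3% against 85.7% for CCAAT, 73.1% against 85.7% for the GC box and 15.4% against 21.4% for CHR. The 26 start sites belong to 20 of the 25 lower genes, some of which have more than 1, and the 14 to 14 of the 15 others. Gins1, Gins2, Gins4, Mcm4, Pole and Rfc2 had no matched start site, and all but Pole were lower with OVA. These percentages are therefore not a comparison of all 40 genes. Below are 80-base stretches, 5′ to 3′ on the gene's strand, with the E2F letters and CCAAT or its reverse complement ATTGG in capitals. RefSeq starts differ from those of the GENCODE annotation in some genes, so only stretches with at most 30 bases in a GENCODE exon are shown. Mcm5 and Cdc6 were lower in both comparisons and hold the E2F letters.
Mcm5 (chr8:75109324-75109403, plus strand): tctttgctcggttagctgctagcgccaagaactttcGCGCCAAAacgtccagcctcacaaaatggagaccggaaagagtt
Cdc6 (chr11:98907977-98908056, plus strand): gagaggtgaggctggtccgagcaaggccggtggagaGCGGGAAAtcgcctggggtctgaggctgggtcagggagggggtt
Mcm6 and Pola1 hold them too and were not called in either comparison.
Mcm6 (chr1:128359709-128359788, minus strand): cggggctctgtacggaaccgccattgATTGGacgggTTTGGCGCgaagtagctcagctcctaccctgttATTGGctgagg
Pola1 (chrX:93632250-93632329, minus strand): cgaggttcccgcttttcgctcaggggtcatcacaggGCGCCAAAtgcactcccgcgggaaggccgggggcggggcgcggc
Tk1 and Rrm2, the genes with the largest falls, hold neither E2F spelling anywhere in their windows. Only these 2 exact spellings were searched, so other E2F sites would have been missed. Rrm2 shows a CCAAT upstream of its start.
Tk1 (chr11:117826065-117826144, minus strand): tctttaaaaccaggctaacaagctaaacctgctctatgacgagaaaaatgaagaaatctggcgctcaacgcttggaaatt
Rrm2 (chr12:24708174-24708253, plus strand): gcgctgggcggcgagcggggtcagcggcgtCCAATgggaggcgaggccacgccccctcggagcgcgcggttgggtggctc
These matches describe letters in a window and say nothing of binding.

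All 4 genes of nucleotide supply were lower in both comparisons. Of all tested genes 21.9% were lower in each comparison, the share to set beside each role count below. Tk1 (chromosome 11, 117815526 to 117826092, minus strand), the thymidine kinase of the salvage pathway, was at 42.6, 42.5 and 45.9 CPM in unpulsed CtrV replicates 1, 2 and 3 and at 37.1, 44.4 and 46.7 CPM in the OVA-pulsed ones. In EKO cells it was at 24.5, 21.7 and 23.8 CPM unpulsed and 18.5, 23.5 and 20.3 CPM with OVA. The highest EKO library therefore lay well below the lowest CtrV library. Its log2 fold change with OVA was -1.04 ± 0.09 (adjusted p = 7.2e-06) and without OVA -0.90 ± 0.09 (adjusted p = 2.18e-05), so that with OVA the level fell by 51.3%. Rrm2, the small subunit of ribonucleotide reductase, was the most abundant of the 40 per length of transcript, at 89.3 ± 7.62 RPKM (CPM per kilobase of exon, SD, n = 3) in OVA-pulsed CtrV and 57.6 ± 6.13 in OVA-pulsed EKO cells. Rrm2 fell by 35.6% with OVA, a log2 fold change of -0.63 ± 0.10 (adjusted p = 0.000337), and by 30.7% without. Rrm1, the large subunit, changed by -0.29 ± 0.06 on the log2 scale with OVA (adjusted p = 0.00311, edgeR) and by -0.19 ± 0.06 without (adjusted p = 0.0304, edgeR). The unpulsed call of Rrm1 was lost without the replicate number in the fit (adjusted p = 0.0557) and in the 6 unpulsed libraries alone (0.0713). Tyms (chromosome 5, 30058202 to 30073617, minus strand), which makes thymidylate and is the target of fluorouracil, changed least in this group with OVA, and Rrm1 without. It was at 54.9, 65.2 and 60.1 CPM in OVA-pulsed CtrV and 50.7, 53.6 and 50.03 CPM in OVA-pulsed EKO libraries, and at 59.4, 64.9 and 62.8 CPM against 56.8, 49.2 and 48.1 CPM without OVA. Its groups did not overlap in either comparison, although OVA-pulsed CtrV replicate 1 lay close to the EKO values. The change was -0.22 ± 0.08 (adjusted p = 0.0324) with OVA and -0.28 ± 0.08 (adjusted p = 0.0118) without, and with OVA it was the call most often lost when 1 library was left out, in 5 of 6 fits.

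**Figure D3:**
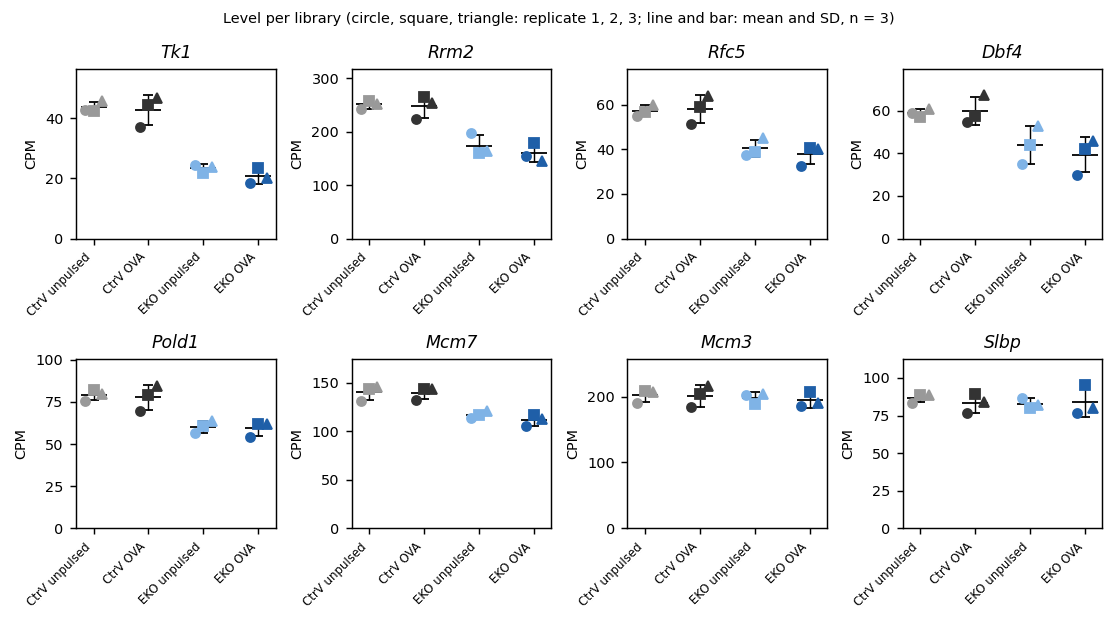
CPM per library of 8 replication genes in the 4 groups, each on an axis from 0, with the mean and SD of 3 libraries. Tk1, Rrm2, Rfc5, Dbf4, Pold1 and Mcm7 show EKO libraries below all CtrV libraries, while Mcm3 and Slbp overlap between the lines.

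Of the 10 licensing genes, 5 were lower with OVA (Orc1, Cdc6, Mcm4, Mcm5 and Mcm7) and 5 without (Cdc6, Cdt1, Mcm4, Mcm5 and Mcm7). The share among all tested genes was 21.9% in each comparison. Mcm5 (chromosome 8, 75109569 to 75128439, plus strand), a subunit of the helicase ring, was at 217, 236 and 235 CPM in unpulsed and 213, 243 and 246 CPM in OVA-pulsed CtrV libraries. The EKO values were 188, 186 and 195 CPM unpulsed and 172, 199 and 174 CPM with OVA, all below the lowest CtrV library. Its log2 fold change was -0.36 ± 0.06 (adjusted p = 0.000532) with OVA and -0.27 ± 0.06 (adjusted p = 0.00357) without. Cdc6, the loader that binds the origin recognition complex, fell by 19.1% with OVA and 20.2% without (adjusted p = 0.0154 and 0.0125, edgeR). Orc6 (chromosome 8, 85299632 to 85308278, plus strand), a subunit of the origin recognition complex, had the smallest change of this group with OVA, and Mcm3 without (-0.02 ± 0.06). Orc6 was at 37.0, 43.8 and 45.3 CPM unpulsed and 37.7, 45.7 and 39.9 CPM pulsed in CtrV cells, and at 45.5, 43.1 and 41.9 CPM unpulsed and 38.1, 46.7 and 39.2 CPM pulsed in EKO cells. The Orc6 values of the lines overlapped throughout, with log2 fold changes of 0.01 ± 0.08 (adjusted p = 0.954) and 0.05 ± 0.08 (adjusted p = 0.631). Cdt1, the partner of Cdc6 in loading, had log2 fold changes of -0.09 ± 0.07 (adjusted p = 0.364) with OVA and -0.24 ± 0.07 (adjusted p = 0.0203) without.

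Helicase activation genes were lower in 6 of 9 cases with OVA (Gins1, Gins2, Gins4, Cdc7, Dbf4 and Ticrr) and in 3 of 9 without (Gins2, Gins4 and Dbf4). Of all tested genes 21.9% were lower in each comparison, so the unpulsed count is not far from that share. Dbf4 (chromosome 5, 8396973 to 8422716, minus strand), the activating subunit of the Cdc7 kinase, was at 58.8, 57.0 and 61.0 CPM unpulsed and 54.6, 57.4 and 67.3 CPM with OVA in CtrV cells. EKO cells had 34.8, 44.0 and 52.6 CPM unpulsed and 30.02, 42.2 and 45.6 CPM with OVA, with replicate 1 the lowest of each group. No EKO library overlapped the CtrV libraries of its comparison, and the log2 fold change was -0.62 ± 0.10 (adjusted p = 0.000573) with OVA and -0.45 ± 0.10 (adjusted p = 0.00453) without. Without the replicate number in the fit, the adjusted p of the unpulsed comparison was 0.0581. Ticrr, also called Treslin, which helps load Cdc45, fell by 27.6% with OVA (log2 fold change -0.47 ± 0.11, adjusted p = 0.00582, edgeR).

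Gins3 (chromosome 8, 95633453 to 95645060, plus strand), a GINS subunit, was the only one of the 40 genes called higher. It was at 12.6, 13.6 and 10.9 CPM in unpulsed CtrV and 14.7, 14.4 and 13.6 CPM in unpulsed EKO libraries, and these overlapped only at CtrV replicate 2. With OVA it was at 11.9, 13.4 and 11.4 CPM in CtrV and 11.6, 13.2 and 11.4 CPM in EKO libraries, which overlapped. The unpulsed log2 fold change of 0.21 ± 0.07 (adjusted p = 0.0286) did not hold under DESeq2 (adjusted p = 0.116) or without the replicate number (0.128), and the pulsed one was -0.02 ± 0.07 (adjusted p = 0.807). Among the remaining genes of this role, Mcm10 had log2 fold changes of -0.22 ± 0.09 (adjusted p = 0.0755) and -0.09 ± 0.09 (adjusted p = 0.467), and Cdc45 of -0.08 ± 0.07 (adjusted p = 0.328) and -0.06 ± 0.07 (adjusted p = 0.489).

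Of the 5 polymerase and primase genes, Pola2 and Pold1 were lower in both comparisons, against 21.9% of all tested genes in each. Pold1 (chromosome 7, 44532746 to 44548849, minus strand), the catalytic subunit of polymerase delta, which copies mainly the lagging strand, was at 75.7, 81.8 and 79.8 CPM unpulsed and 69.7, 78.9 and 84.3 CPM pulsed in CtrV cells. In EKO cells it was at 56.7, 60.5 and 63.8 CPM unpulsed and 54.3, 62.2 and 61.8 CPM pulsed. All 6 EKO libraries lay below all 6 CtrV libraries, and the log2 fold changes were -0.38 ± 0.05 (adjusted p = 9.23e-05) and -0.39 ± 0.05 (adjusted p = 8.99e-05). Pole, the catalytic subunit of the leading-strand polymerase, had log2 fold changes of -0.25 ± 0.11 (adjusted p = 0.0782) with OVA and -0.04 ± 0.11 (adjusted p = 0.79) without. With OVA, Pole was called lower in the 6 pulsed libraries alone (adjusted p = 0.00591). Without OVA it was -0.21 (adjusted p = 0.0162) when CtrV unpulsed replicate 3, at 52.9 CPM, was left out. Prim1 (chromosome 10, 128015168 to 128030037, plus strand), the primase that lays the RNA primer, was at 33.3, 37.7 and 38.5 CPM unpulsed and 31.0, 36.4 and 35.6 CPM pulsed in CtrV cells. EKO cells had 35.2, 34.5 and 33.5 CPM unpulsed and 28.6, 36.3 and 32.5 CPM pulsed. The lines overlapped in both comparisons, with changes of -0.08 ± 0.07 (adjusted p = 0.358) and -0.08 ± 0.07 (adjusted p = 0.36), and Pola1, the polymerase subunit of the same complex, had -0.11 ± 0.07 (adjusted p = 0.246) and 0.06 ± 0.07 (adjusted p = 0.522).

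The clamp and its loader gave 3 lower genes of 6 with OVA (Rfc1, Rfc2 and Rfc5) and 4 of 6 without (Pcna, Rfc2, Rfc3 and Rfc5). The share among all tested genes was 21.9% in each comparison. Rfc5 (chromosome 5, 117378103 to 117389047, minus strand), a small subunit of the loader replication factor C, was at 55.1, 56.7 and 59.95 CPM unpulsed and 51.5, 59.1 and 63.7 CPM pulsed in CtrV cells. The EKO libraries had 37.4, 38.9 and 44.9 CPM unpulsed and 32.5, 40.7 and 40.3 CPM pulsed, every one below every CtrV library. That was a log2 fold change of -0.62 ± 0.06 (adjusted p = 1.56e-05) with OVA and -0.51 ± 0.06 (adjusted p = 7.48e-05) without. Rfc3 (chromosome 5, 151642756 to 151651242, minus strand), another small subunit, was at 23.5, 26.6 and 24.5 CPM in pulsed CtrV and 22.0, 26.3 and 23.9 CPM in pulsed EKO libraries, which overlapped. Unpulsed, it was at 24.7, 28.3 and 30.7 CPM in CtrV and 22.6, 23.6 and 24.4 CPM in EKO libraries, which did not. Its log2 fold changes were -0.05 ± 0.07 (adjusted p = 0.554) and -0.24 ± 0.07 (adjusted p = 0.0116), the latter with an adjusted p of 0.0536 without the replicate number. Pcna, the clamp itself and the second most abundant of the 40 per length (62.4 ± 2.93 RPKM in pulsed CtrV, 56.4 ± 2.53 in pulsed EKO), had log2 fold changes of -0.15 ± 0.08 (adjusted p = 0.132) and -0.20 ± 0.08 (adjusted p = 0.0493).

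Both genes that finish Okazaki fragments were lower in both comparisons. Fen1 (chromosome 19, 10199132 to 10204169, minus strand), the flap endonuclease, was at 133, 145 and 145 CPM unpulsed and 133, 144 and 137 CPM pulsed in CtrV cells. It was at 105, 102 and 113 CPM unpulsed and 98.3, 117 and 105 CPM pulsed in EKO cells. Lig1 (chromosome 7, 13277283 to 13311433, plus strand), the ligase that seals the nicks, was at 81.4, 90.1 and 88.8 CPM unpulsed and 83.4, 88.4 and 89.0 CPM pulsed in CtrV cells. In EKO cells Lig1 was at 68.8, 69.8 and 73.4 CPM unpulsed and 65.3, 73.3 and 65.4 CPM pulsed. Neither gene overlapped between the lines. With OVA the log2 fold change was -0.37 ± 0.06 (adjusted p = 0.000501) for Fen1 and -0.36 ± 0.05 (adjusted p = 0.000233) for Lig1, and without OVA -0.39 and -0.30. Exons on the other strand cover 84.2% of the exon bases of Fen1, 67.3% of Gins2 and 52.5% of Chaf1a, and no source says if strand was used in counting, so these 3 values may include reads of the neighbour. Without the 3 genes, 22 were lower with OVA, and 18 lower and 1 higher without.

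Of the 4 chromatin genes, Chaf1a, Chaf1b and Uhrf1 were lower with OVA and Chaf1a without. The unpulsed count, 1 of 4, was near the share of all tested genes, 21.9% in each comparison. Chaf1a (chromosome 17, 56040439 to 56072289, plus strand), the large subunit of the histone chaperone CAF-1, was at 80.5, 83.7 and 81.1 CPM unpulsed and 74.1, 82.5 and 81.0 CPM pulsed in CtrV cells. EKO cells had 62.0, 64.2 and 68.8 CPM unpulsed and 55.3, 65.5 and 65.2 CPM pulsed, below every CtrV library. Its log2 fold change was -0.36 ± 0.05 (adjusted p = 0.000332) with OVA and -0.33 ± 0.05 (adjusted p = 0.000562) without. Slbp (chromosome 5, 33634952 to 33652574, minus strand), which binds the stem-loop of histone mRNA, was at 83.2, 88.4 and 88.3 CPM unpulsed and 76.5, 89.1 and 83.9 CPM pulsed in CtrV cells. It was at 86.8, 79.8 and 81.9 CPM unpulsed and 76.8, 95.3 and 80.2 CPM pulsed in EKO cells, and the lines overlapped in both comparisons. Slbp had log2 fold changes of 0.01 ± 0.07 (adjusted p = 0.888) and -0.06 ± 0.07 (adjusted p = 0.515). Uhrf1, which brings the maintenance methylase to new DNA, fell by 15.1% with OVA (adjusted p = 0.0107, edgeR), and its unpulsed log2 fold change was -0.14 ± 0.06 (adjusted p = 0.103).

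The balance between subunits of one complex differed between the lines for part of the pairs examined. For 37 pairs of subunits of 7 complexes, the log2 ratio of their CPM was taken in each library and compared between the lines by an exact permutation test within the pulsed and the unpulsed libraries (400 arrangements, two-sided). The smallest p this test can give is 0.005, and 23 pairs had a Benjamini-Hochberg adjusted p under 0.05 over the 37 pairs. For 15 pairs no EKO library overlapped a CtrV library. Pairs of other genes were not examined, so it is not known if these counts exceed those of arbitrary pairs. Of single genes, 47% were called between the lines with OVA. The pairs were examined after the fold changes had been seen, and same-numbered libraries of the lines varied together when pulsed. Same-numbered unpulsed and pulsed EKO libraries also varied together (r = 0.711, 0.357 and 0.424 over all tested genes). The 400 arrangements treat them as separate, so these p-values may be too small and describe the 12 libraries only. Only changes of a ratio are read here, since its level depends on transcript length.

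In the MCM ring, which holds 1 copy of each of 6 subunits, Mcm4, Mcm5 and Mcm7 stood apart from Mcm3 and Mcm6. The log2 ratio of Mcm3 to Mcm5 was -0.19 ± 0.0031 and -0.22 ± 0.04 in unpulsed and pulsed CtrV cells and 0.06 ± 0.04 and 0.10 ± 0.03 in EKO cells (SD, n = 3). The difference between the lines was 0.28 (exact permutation p = 0.005, adjusted 0.0103). All 6 ratios of Mcm3 or Mcm6 to Mcm4, Mcm5 or Mcm7 moved by 0.23 to 0.28 with no overlap between the lines. The ratio of Mcm3 to Mcm6 moved by 0.02 (exact permutation p = 0.36, adjusted 0.43), and the 3 ratios among Mcm4, Mcm5 and Mcm7 had adjusted p-values from 0.43 to 0.822. Mcm2 lay between both sets. From CtrV to EKO its log2 ratio to Mcm3 changed by -0.13 and its ratio to Mcm5 by 0.15 (adjusted p = 0.0103 for both, exact permutation test).

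In replication factor C, Rfc5 moved against each of the other 4 subunits, although the lines overlapped for its ratio to Rfc2. Rfc2 also shifted against Rfc1 and Rfc3 (adjusted p = 0.0185 and 0.042, exact permutation test). The log2 ratio of Rfc1 to Rfc5 was 0.63 ± 0.11 and 0.65 ± 0.10 in unpulsed and pulsed CtrV cells and 1.03 ± 0.07 and 1.06 ± 0.13 in EKO cells, and all 4 ratios with Rfc5 had an adjusted p of 0.0103 (exact permutation test). Rrm2 and Dbf4, the partners whose protein comes and goes with the cell cycle, also shifted against Rrm1 and Cdc7. Rrm1 to Rrm2 went from 0.52 ± 0.04 in pulsed CtrV to 0.86 ± 0.13 in pulsed EKO cells, and Cdc7 to Dbf4 from -1.94 ± 0.06 to -1.54 ± 0.13, each with an adjusted p of 0.0103 (exact permutation test) and no overlap over the 12 libraries. Gins3 moved against Gins2, with a log2 ratio of Gins2 to Gins3 of 1.19 ± 0.12 in unpulsed CtrV and 0.73 ± 0.11 in unpulsed EKO cells, and a smaller shift with OVA, from 1.12 ± 0.12 to 0.89 ± 0.12. For CAF-1 the ratio of Chaf1a to Chaf1b differed by -0.13 (exact permutation p = 0.045, adjusted 0.0666), which missed the threshold.

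**Figure D4:**
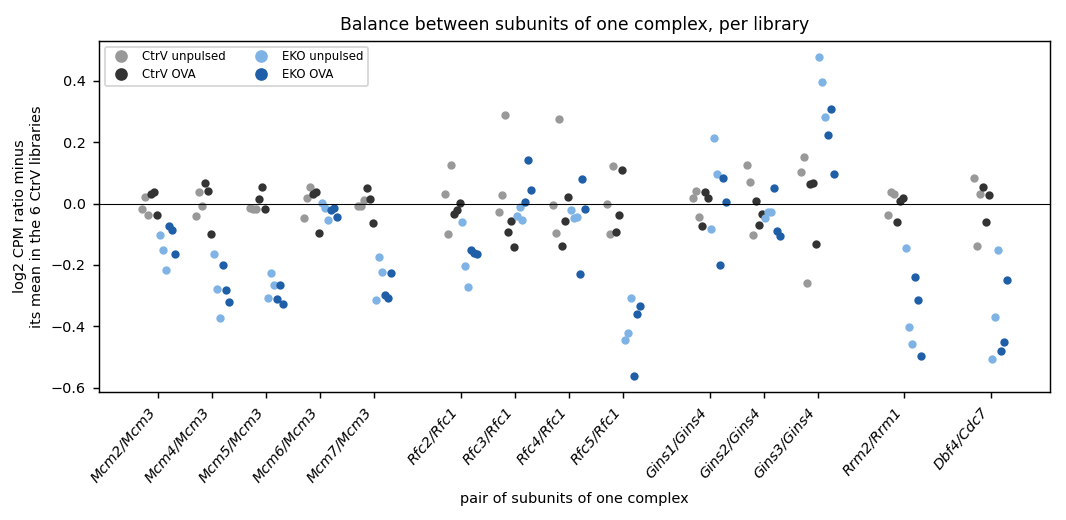
Log2 CPM ratio of pairs of subunits in each of the 12 libraries, minus its mean over the 6 CtrV libraries. EKO points (blue) lie below all CtrV points (grey) for Mcm4, Mcm5 and Mcm7 over Mcm3, for Rfc5 over Rfc1, for Rrm2 over Rrm1 and for Dbf4 over Cdc7, and among them for Mcm6 over Mcm3.

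OVA pulsing did not move any of the 40 genes past the threshold in either line. Called shares over all tested genes were also 0% in both lines, and the difference between the lines depended on pulsing for 0% of them. In CtrV cells the log2 fold changes of the 40 genes for pulsed over unpulsed cells ran from -0.16 to 0.13 with a median of -0.01, and 1 (Rfc3) had an unadjusted p under 0.05 in edgeR and 0 in DESeq2. Of all 14079 tested genes, 231 had such a p in edgeR. In EKO cells the log2 fold changes ran from -0.24 to 0.06 with a median of -0.07, 32 of 40 were below 0, and 2 (Gins1 and Gins3) had an unadjusted p under 0.05 in edgeR and 1 in DESeq2. Of all 14079 tested genes 6863 were below 0, and 394 had an unadjusted p under 0.05 in edgeR. So few among 40 genes are no finding about them. None of the 40 had pulsed CtrV libraries that were all lower or all higher than the unpulsed ones, as 2.39% and 1.98% of all tested genes had. In EKO cells Gins3 and Chaf1b were lower in every pulsed library, 2 of 40, where 2.56% of all tested genes were lower and 2.34% higher in every library. The dependence on pulsing had log2 differences from -0.28 (Ticrr) to 0.19 (Rfc3), 1 unadjusted p under 0.05 in edgeR (Gins3) and 0 in DESeq2. Of all 14079 tested genes 269 had such a p in edgeR. With 3 libraries a group and standard errors from 0.06 (Mcm7) to 0.16 (Ticrr) for such a difference, small effects of pulsing were not detectable.

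Of 53 other replication genes, 25 were lower and 13 higher with OVA, with a median log2 fold change of -0.20, where 21.9% of all tested genes were lower and 25.1% higher. The share that was higher was thus near that of all genes. Cad, which starts pyrimidine synthesis, changed by -1.11 ± 0.12 on the log2 scale, from 226 ± 8.29 CPM in pulsed CtrV to 106 ± 9.66 CPM in pulsed EKO cells (SD, n = 3). Dctpp1, which clears unwanted dCTP, changed by -0.75 and Chtf18, part of an alternative clamp loader, by -0.50. The 3 largest rises were those of Samhd1, Rrm2b and Dck. Samhd1, which degrades dNTPs in non-dividing myeloid cells, went from 384 ± 54.0 to 589 ± 35.9 CPM (log2 fold change 0.62 ± 0.12, adjusted p = 0.00184, edgeR). Rrm2b, the p53-induced reductase subunit, had 0.61 ± 0.07 (adjusted p = 4.71e-05) and Dck, a salvage kinase, 0.55 ± 0.10 (adjusted p = 0.00132). Rrm2 and Rrm2b, alternative partners of Rrm1, therefore moved in opposite directions.

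Of 17 cell cycle drivers tested, 9 were lower with OVA and 1, Ccnd2, was higher. Of 17 brakes 6 were lower and 4 higher, where 21.9% and 25.1% of all tested genes were. Ccnd3, a D-type cyclin, was at 198, 199.98 and 199.9 CPM in pulsed CtrV and 109.8, 88.8 and 84.9 CPM in pulsed EKO libraries, while Ccnd2, another D-type cyclin, was at 995, 663 and 633 and 2344, 1209 and 1489.7 CPM. The log2 fold changes were -1.08 ± 0.08 (adjusted p = 1.9e-06) for Ccnd3 and 1.12 ± 0.15 (adjusted p = 0.000171) for Ccnd2. Cks1b and Skp2, which together target the inhibitor p27 for degradation, changed by -0.65 and -0.61. The CDK4 and CDK6 inhibitor Cdkn2b rose by 2.22 ± 0.25, from 15.6, 7.52 and 6.66 CPM to 56.2, 34.2 and 47.7 CPM, and Cdkn2a by 0.93 from a low level of 2.47 ± 0.364 CPM.

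Most mitotic genes were lower too. Of 22 fixed by name, 21 were lower with OVA and 15 without, with medians of -0.65 and -0.50 against -0.24 and -0.20 for the 40 replication genes. Cenpf, Cdc20 and Ccnb2, which act at the kinetochore, in anaphase and with Cdk1, had log2 fold changes of -1.13, -0.98 and -0.94 with OVA. OVA-pulsed EKO replicate 1 was again the lowest library for all 3, at 31.5 CPM of Cdc20 against 61.3 and 66.3 CPM in replicates 2 and 3. The difference between the lists was not tested, and 21.9% of all tested genes were lower with OVA.

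**Figure D5:**
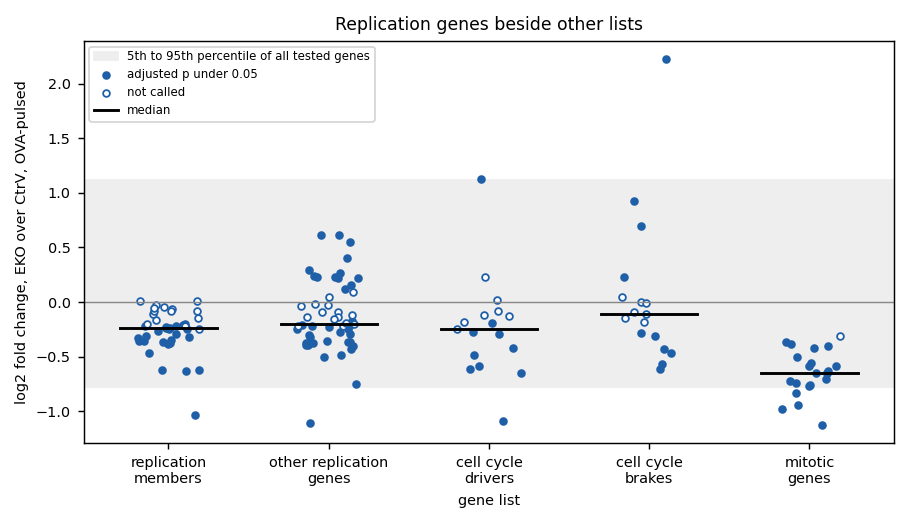
Log2 fold change with OVA, EKO over CtrV, of each gene in the 40 replication genes, 53 other replication genes, 17 cell cycle drivers, 17 brakes and 22 mitotic genes, with the median as a bar and the grey band from the 5th to the 95th percentile of all tested genes (-0.77 to 1.12). Of the replication genes only Tk1 stands apart, with Rrm2 lying just below Rfc5 and Dbf4 (-0.62) and the highest at 0.01, and the mitotic genes sit lower.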

How the data were processed

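The authors deposited unnormalized read counts, 1 per gene and library, for 12 libraries of Sp37A3 cells (27116201 to 39698572 counts). Per the labels and the paper's methods, total RNA was made into stranded mRNA libraries, aligned to mm10 with STAR and counted on exons with featureCounts. Whether counting used the strand and whether same-numbered cultures were handled together are not given in the sources used here, so p-values measure the spread between these libraries. The 40 genes, the other lists and the tests were chosen with earlier results of these data known.

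The 14079 of 55401 genes whose log2 CPM exceeded 0 in 2 or more libraries were normalized by TMM and fitted with group and replicate number over all 12 libraries by edgeR 4.0.16 (R 4.3.3, quasi-likelihood test, adjusted p under 0.05 by Benjamini-Hochberg over all tested genes, no fold limit). Replicate numbers come from the labels. Deviations of same-numbered OVA-pulsed libraries of the lines had correlations of 0.45, 0.295 and 0.298, and of unpulsed ones 0.0664, -0.00915 and 0.271. Same-numbered pulsed libraries thus varied together to that extent, and of the unpulsed ones only number 3 comes near the pulsed values. Correlations between libraries of different numbers were not taken. Between same-numbered unpulsed and pulsed libraries of 1 line, the correlations were 0.711, 0.357 and 0.424 in EKO and 0.0893, 0.185 and 0.385 in CtrV cells. Values in every library are given for the genes with the largest and smallest change with OVA in each role and for genes called against the majority, and of the other lists for the 3 largest rises and falls. Subunit ratios and promoter letters were added after the values had been seen. Positions and exon overlaps are from the GENCODE annotation of GRCm38 and promoters from RefSeq on GRCm38. RPKM used the exon length of that annotation. The fit and the ratio test were tested on simulated data. Alternatives were RLE normalization, DESeq2 1.42.0, other filters, no replicate block, bias-adjusted deviances, an adjusted p under 0.01, the compared libraries alone, leaving out libraries, and leaving out genes that share exons with the other strand. The paper's flow cytometry, array and mouse data were not used here.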

Additional observations from a re-analysis of the deposited data

How the results depend on the processing

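The counts of lower replication genes kept their direction throughout. With OVA 25 genes were called, and between 20 and 27 were under RLE normalization (26), DESeq2 (23), no filter (27), 10 counts in every library (25), no replicate block (20), the 6 compared libraries alone (27) and without both EKO libraries numbered 1 (25), and 18 at an adjusted p under 0.01. Without OVA 22 were called and 17 to 26 were under the same settings, except 13 at an adjusted p under 0.01. In the unpulsed comparison, where libraries numbered 1 and 2 had correlations of 0.0664 and -0.00915 between the lines, the fit without the replicate block called 18 (all lower). With 1 library left out the counts ran from 18 to 27 with OVA and from 14 to 26 without, and the medians from -0.28 to -0.21 and from -0.27 to -0.15. Medians for the dependence on pulsing ran from -0.10 to 0.02, for EKO pulsing from -0.11 to -0.01 and for CtrV pulsing from -0.03 to 0.01, with no gene called in any of them. The cause of these shifts was not tested.

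Changes of sign were seen in genes near 0, of which only unpulsed Pole was called in a fit (without CtrV replicate 3). On the log2 scale, Orc6 with OVA was -0.00675 without the filter, -0.0094 without both EKO libraries numbered 1 and -0.063 to 0.045 with 1 library left out. Without both EKO libraries numbered 1, Gins3 with OVA was 0.0036, and in unpulsed cells Orc6 was -0.054, Mcm10 0.044, Pola1 -0.025 and Pole 0.036. With 1 library left out, Gins3 with OVA ran from -0.052 to 0.013 and Slbp from -0.0797 to 0.0596. In unpulsed cells the ranges were -0.0497 to 0.14 for Orc6, -0.0836 to 0.0401 for Mcm3, -0.13 to 0.015 for Mcm6, -0.17 to 0.021 for Mcm10, -0.11 to 0.0022 for Cdc45, -0.0396 to 0.14 for Pola1, -0.21 to 0.083 for Pole and -0.15 to 0.016 for Slbp. Without the replicate block the calls of Orc1, Gins1, Cdc7, Pola2 and Chaf1b with OVA and of Gins3, Dbf4, Rfc3 and Rrm1 without were lost (adjusted p from 0.0536 to 0.191). The compared libraries alone lost Cdc7 with OVA and Cdt1, Gins3, Gins4, Pcna and Rrm1 without (0.0519 to 0.127). DESeq2 lost the calls of Orc1 and Cdc7 with OVA and of Gins3 without. Some calls were gained with OVA. The compared libraries alone called Pole, Rfc4 and Pcna lower (adjusted p = 0.00591, 0.0268 and 0.0484, edgeR). Fits without the filter called Pole and Rfc4 lower (0.04 and 0.0424), and RLE normalization called Rfc4 (0.0475). Precision is limited by 3 libraries a group, since the 40 genes had at least 318 counts in every library.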
